A study of Mus musculus with 26 samples.

Results

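Cells sorted from gliomas labelled Rbpj-/- were compared with cells sorted from control gliomas, described as intact for Notch. There were 4 Rbpj-/- and 6 control libraries out of 26 in the series, compared over all 15617 genes that passed a filter on low counts. The libraries were chosen by their genotype labels alone. All tumours of the series are mouse brain gliomas labelled PDGF+Trp53-/-, so both groups carry the Trp53 knockout. The control group is wild type for Notch1, Notch2 and Rbpj. The Rbpj-/- group is wild type for Notch1 and Notch2 and knocked out for Rbpj. Gliomas were taken at an early stage, found and dissected by the green fluorescence of a Cre reporter (Rosa-CAG::GFP), and their GFP+ cells were sorted before RNA extraction. Such a reporter marks cells in which Cre has acted, so the sort selects recombined cells and not a cell type. For the Cre driver, strain, sex and age, the labels give nothing. The labels do not tie the replicates to separate animals, and the p-values therefore reflect variation among libraries alone, part of which may be technical. The spread of each gene was estimated from all 26 libraries of the series, not only from the 4 and 6 compared.

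Notch receptors are cleaved when a ligand on a neighbouring cell binds them, and the freed intracellular part enters the nucleus. There it joins Rbpj, a DNA-binding protein, together with Mastermind coactivators, and switches on targets such as the Hes and Hey repressors and Nrarp, a feedback inhibitor. Without the receptor fragment, Rbpj holds corepressors such as Spen on the same sites, so loss of Rbpj removes both the activator and the repressor. In the brain the pathway is known for holding neural progenitors back from neuronal differentiation.

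The site that Rbpj prefers holds GTGGGAA, so the windows around the start sites of 3 genes of the pathway are shown, of which 1 target fell, 1 target did not pass the test and the third, Id4, an inhibitor of bHLH factors, fell. Sequences run from 250 bases before to 50 after the start (RefSeq, GRCm38.p6), 5′ to 3′ along the gene's own strand, and capitals mark TGGGAA, the last 6 letters of that motif, on either strand.
Hes5, chr4:154960673-154960972 (+ strand): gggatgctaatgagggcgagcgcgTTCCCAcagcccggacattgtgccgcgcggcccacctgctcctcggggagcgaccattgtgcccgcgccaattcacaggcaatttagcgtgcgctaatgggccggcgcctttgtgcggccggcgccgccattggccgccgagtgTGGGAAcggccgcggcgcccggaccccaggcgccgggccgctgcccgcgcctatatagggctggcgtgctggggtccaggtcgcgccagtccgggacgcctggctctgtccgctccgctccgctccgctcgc
Nrarp, chr2:25180508-25180807 (+ strand): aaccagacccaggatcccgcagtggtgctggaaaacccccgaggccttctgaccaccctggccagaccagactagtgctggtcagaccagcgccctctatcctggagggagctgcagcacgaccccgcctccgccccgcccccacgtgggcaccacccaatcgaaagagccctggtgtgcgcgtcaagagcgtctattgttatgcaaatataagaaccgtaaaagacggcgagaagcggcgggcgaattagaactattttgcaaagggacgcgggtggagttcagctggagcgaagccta
Id4, chr13:48260866-48261165 (+ strand): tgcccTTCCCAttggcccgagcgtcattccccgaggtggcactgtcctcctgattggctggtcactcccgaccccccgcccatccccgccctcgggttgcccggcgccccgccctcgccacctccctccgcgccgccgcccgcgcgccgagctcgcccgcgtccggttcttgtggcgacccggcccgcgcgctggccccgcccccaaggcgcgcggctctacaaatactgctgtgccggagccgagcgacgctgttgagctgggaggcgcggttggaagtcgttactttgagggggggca
The Hes5 window held the full GTGGGAA once on each strand, and the capitals that mark its last 6 letters begin at -226 (opposite strand) and -82 (gene's strand) bases from the start site. The Id4 window held the shorter TGGGAA once, at -245, on the opposite strand. The Nrarp window held neither. Windows of this length were matched by gene identifier for 12177 of the 15617 tested genes. GTGGGAA lay on either strand in 6.23% of them, in 6.48% of the genes that rose and in 6.08% of those that fell. It lay on both strands, as at Hes5, in 0.123% of all, 0.405% of risen (4) and 0.115% of fallen genes (1). The shorter TGGGAA, as at Id4, was common: it lay in 23.5% of all windows, 23.9% of risen and 22.2% of fallen genes.

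Rbpj, the deleted gene (Entrez 19664, chromosome 5), had 20.4, 35.0, 43.7 and 52.0 CPM across the 4 Rbpj-/- libraries. The controls had 52.9 to 68.0 CPM, with a median of 62.1. CPM is a read count scaled to a common library size, and the 4 Rbpj-/- values are listed in the order of the replicate numbers throughout, before the lowest, highest and median control. The groups did not overlap, but replicate 4 lay just under the lowest control, and no library was near 0. On the log2 scale Rbpj fell by 0.70 (standard error 0.20, adjusted p = 0.0222, edgeR's quasi-likelihood test). It no longer passed without Rbpj-/- replicate 1 (0.0735) or 2 (0.0664) and with only the 10 libraries in the fit (0.0652). The table gives 1 count per gene, and no label names the deleted part of Rbpj, so reads from any part left in place cannot be told apart from reads of an intact gene. Trp53, knocked out in both groups, had 18.1, 12.8, 11.5 and 11.9 CPM against 8.98 to 15.2 CPM, with a median of 10.4, and did not pass the test (0.33 ± 0.17, adjusted p = 0.203). Chromosome 5, where Rbpj lies, stood higher than the rest of the genome in replicate 4: its genes had a median of 0.38 log2 units above the control mean, against 0.01 to 0.12 for each other chromosome. Taken relative to that median, Rbpj stood at -1.76, -1.01, -0.48 and -0.61 log2 units in the 4 Rbpj-/- libraries and between -0.21 and 0.18 in the controls.

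Total counts were 30868828 to 44302365 in Rbpj-/- and 37613009 to 46703709 in control. Xist, which marks female cells, was high and the Y-linked Ddx3y was at 0 in Rbpj-/- replicate 2 and control replicate 1, both genes were present in control replicate 6, and the other 7 libraries had Ddx3y with little Xist. Elsewhere in the series both genes were present in the libraries labelled Notch2-/- replicates 3 and 4. Leaving out the 3 libraries of mixed sex markers therefore removes only control replicate 6 from the 10 compared. Libraries of 1 group also differed in ways that move with gene composition. Among 5 equal groups of genes by GC content, 2.21% of the group of lowest and 15.8% of the group of highest GC rose, while 7.68% and 3.23% fell. Rbpj-/- replicate 1 ran from -0.60 log2 units relative to the control mean in the lowest group to 0.67 in the highest, and replicate 2 also went up, from 0.05 to 0.41. Replicate 3 ran the other way, from 0.36 to -0.30, and replicate 4 from 0.14 to 0.05. Among the controls replicate 3 had the widest span, from -0.46 to 0.16. With per-library offsets for GC content, 1992 of the 2378 calls remained: 924 of the 1245 rises and 1068 of the 1133 falls. On chromosome 5, 136 of 976 tested genes rose (13.9%, against 7.97% overall), and 57 (5.84%, against 4.19%) without Rbpj-/- replicate 4.

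**Figure D1:**
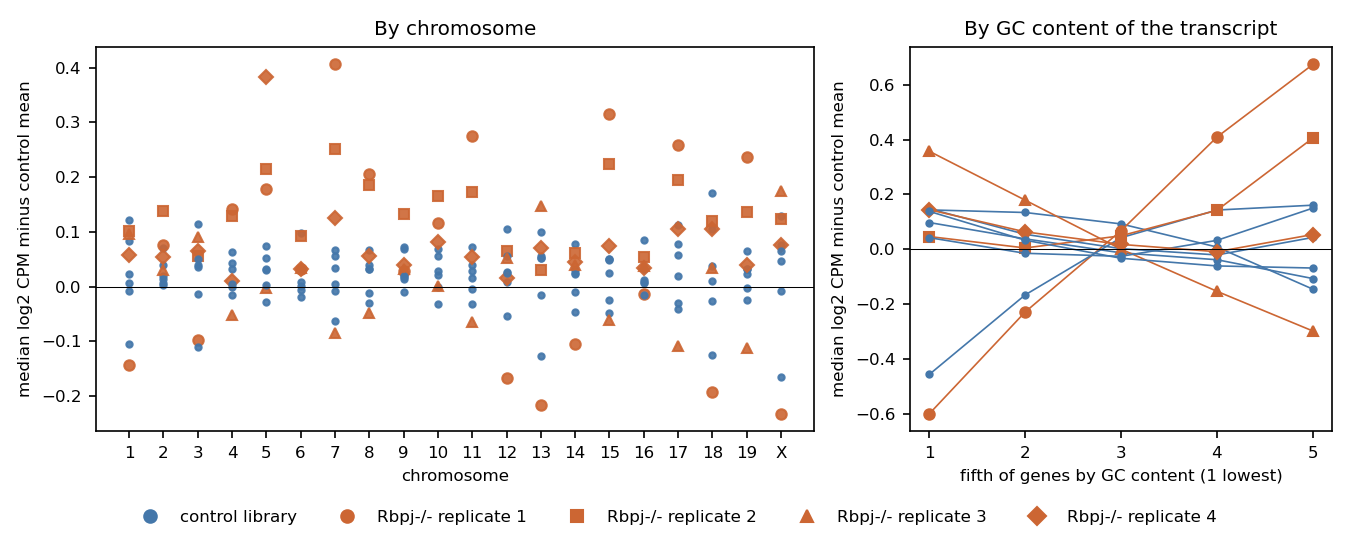
Median log2 CPM relative to the control mean for the genes of each chromosome (left) and each of 5 equal groups of genes by transcript GC content (right), in the 6 control libraries (circles) and the 4 Rbpj-/- libraries (1 marker shape per replicate). Replicate 4 stands at 0.38 on chromosome 5, and replicates 1 and 3 slope in opposite directions with GC content.

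In the Rbpj-/- libraries the Notch target Hes5 and the inhibitor Id4 fell and Myc rose, as did 18 of 53 mitosis genes. So did 24 of 56 ribosome biogenesis genes, a list drawn up after the values were seen, so its count is a description. Of microglia, endothelial and mature oligodendrocyte markers, 17 of 22, 11 of 18 and 13 of 20 fell, while the levels of Hey1 and Nrarp and the summed oligodendrocyte precursor markers overlapped with control. Over all genes, 1245 rose (7.97% of those tested) and 1133 fell (7.25%), in all 15.2%, at an adjusted p under 0.05. More of the falls were large: 298 risen and 762 fallen genes changed over 2-fold. Every Rbpj-/- library lay above every control library for 435 genes (2.79%) and below for 774 (4.96%). Leaving out 1 library moved the count of 2378 to between 1132 and 3292, over 1.5 times lower without Rbpj-/- replicates 1 (1403), 2 (1132) and 4 (1255) or control replicates 2 (1324) and 6 (1579). In all 676 genes kept their call without each library, 277 risen and 399 fallen. With only the 10 libraries compared in the fit, 1222 genes were called, 346 risen and 876 fallen. With a score of microglia and macrophage markers as a covariate 7 genes were called, 4 of which are described below (Trnp1, AI506816, Rpl30 and Pop4), so every other single-gene call against control in this text ended in that fit. The microglia sums of the groups do not overlap, so that covariate and genotype can hardly be told apart.

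Hes5, the Hes repressor whose window is shown above, had 1.80, 1.87, 0.489 and 1.09 CPM in Rbpj-/-. The controls had 2.27 to 7.97 CPM, with a median of 3.43. Every Rbpj-/- library was under every control library, and Hes5 fell (log2 fold change with its standard error -1.64 ± 0.43, adjusted p = 0.0148, in this form from here on). Hes1, a second Hes repressor, had 15.4, 6.81, 8.05 and 4.15 CPM against 11.9 to 21.3 CPM, with a median of 13.8. Its replicate 1 lay inside the control range and the other 3 lay under it, and the difference did not pass the test (-0.77 ± 0.42, adjusted p = 0.213). Hey1, a related repressor, had 34.0, 26.1, 29.5 and 23.7 CPM against 25.3 to 41.7 CPM, with a median of 29.9, which overlap nearly in full (-0.20 ± 0.21, adjusted p = 0.522). Nrarp had 24.3, 19.0, 12.9 and 14.0 CPM against 16.4 to 35.2 CPM, with a median of 21.7, again with overlap (-0.40 ± 0.33, adjusted p = 0.427). Of 21 tested genes listed as Hes, Hey or direct targets, 2 rose and 1 fell, where 7.97% of all genes rose and 7.25% fell. With single libraries left out, the number called in either direction was between 2 (without Rbpj-/- replicate 2) and 6 (without Rbpj-/- replicate 3).

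**Figure D2:**
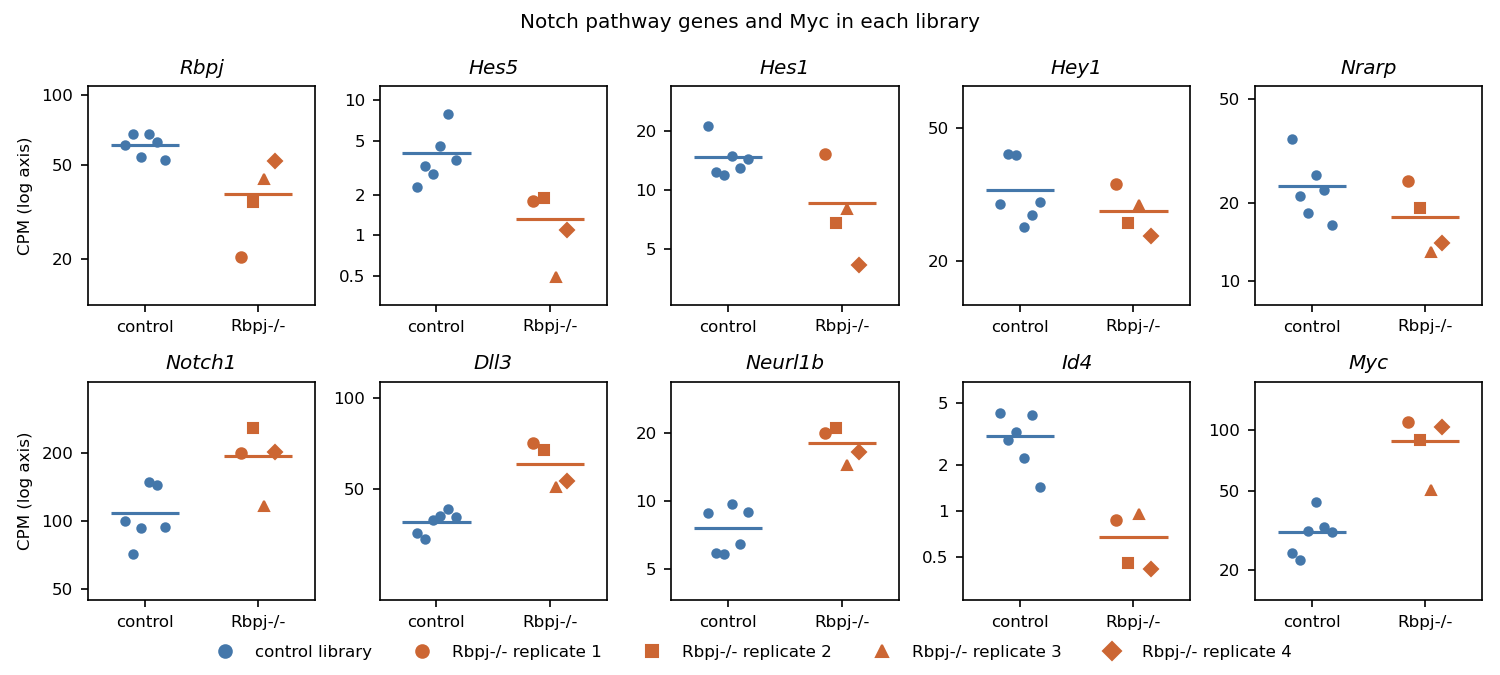
CPM on a log axis of 9 Notch pathway genes and Myc in the 6 control libraries (circles, left) and the 4 Rbpj-/- libraries (1 marker shape per replicate, right), with bars at the group means. Rbpj, Hes5 and Id4 lie below every control, Dll3, Neurl1b and Myc above every control, and Hey1 and Nrarp overlap.

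The 2 listed targets that rose were Myc, a growth-promoting transcription factor, and Ccnd1, the D cyclin that starts the cell cycle. Myc had 109.8, 89.8, 50.3 and 104 CPM in Rbpj-/- against 22.7 to 43.8 CPM in control, with a median of 31.3. The lowest Rbpj-/- library was above the highest control, and Myc rose (1.51 ± 0.23, adjusted p = 0.000505) and still passed with any one of the 10 libraries left out. Ccnd1 had 2943, 2147, 1134 and 1596 CPM against 626 to 1435 CPM, with a median of 759.7. Replicate 3 lay inside the control range (1.16 ± 0.32, adjusted p = 0.0185), and the call ended without Rbpj-/- replicate 1 (0.0805) or 2 (0.0519).

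Among the pathway's upstream parts, Notch1, the receptor, had 201, 259.9, 117 and 203 CPM against 71.2 to 148 CPM, with a median of 97.4, with 1 Rbpj-/- library inside the control range, and rose (0.84 ± 0.26, adjusted p = 0.0340). That call ended without any one of Rbpj-/- replicates 1, 2 and 4 and control replicates 1, 2, 3 and 6 (adjusted p = 0.0577 to 0.132), with offsets for GC content (0.0794), with only the 10 libraries (0.0582), with a stricter filter (0.0510) and without 3 libraries of mixed sex markers (0.0788). Of those 3, only control replicate 6 is among the 10 compared. Notch2 did not pass the test (0.34 ± 0.16, adjusted p = 0.154). Of 14 ligand genes 2 rose and 1 fell, close to the 7.97% and 7.25% over all genes, and the number called was between 1 (without Rbpj-/- replicate 1) and 4 (without Rbpj-/- replicate 3). Dll3, a ligand that acts within its own cell, had 70.7, 67.4, 50.5 and 52.9 CPM against 34.3 to 42.9 CPM, with a median of 40.0, with no overlap (0.63 ± 0.16, adjusted p = 0.0133; 0.112 with GC offsets). Dlk1, an imprinted Delta-like gene, had 57.2, 9.21, 2.03 and 15.5 CPM against 0.569 to 6.01 CPM, with a median of 1.09, and overlapped (3.43 ± 0.85, adjusted p = 0.0121; 2.20 and 0.0842 without Rbpj-/- replicate 1, 4.22 without control replicate 4). Dll4, the ligand of vessel sprouts, fell from a low level (-1.59 ± 0.44, adjusted p = 0.0207), and lost its call without Rbpj-/- replicate 1 (0.0503) or 2 (0.0690) or with only the 10 libraries (0.0698).

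Neurl1b, a ubiquitin ligase that drives ligand endocytosis, had 19.9, 21.0, 14.4 and 16.4 CPM against 5.82 to 9.69 CPM, with a median of 7.66, without overlap, and was the only one of 26 tested processing and modification genes to pass (1.24 ± 0.27, adjusted p = 0.00638), a number that was between 1 and 6 (without Rbpj-/- replicate 3). Of that list 3.85% rose in the main fit, against 7.97% over all genes. Of 27 genes of the Rbpj complex, its coactivators and corepressors, 3 rose besides the fall of Rbpj: the acetyltransferase Kat2a (0.60 ± 0.14, adjusted p = 0.00831), the Mastermind coactivator Maml1 (0.47 ± 0.14, adjusted p = 0.0239) and the corepressor Spen (0.79 ± 0.24, adjusted p = 0.0319). All 3 missed the threshold with only the 10 libraries in the fit (Kat2a 0.0740, Maml1 0.116, Spen 0.160). Maml1 ended without Rbpj-/- replicate 1, 2 or 4 or control replicate 2 or 6 (0.0544 to 0.0726), and Spen without Rbpj-/- replicate 2 or 4 or control replicate 2, 3 or 6 (0.0536 to 0.135). The number called in this list was between 1 (without Rbpj-/- replicate 2) and 10 (without Rbpj-/- replicate 3). In the main fit 11.1% of the list rose and 3.70% fell, against 7.97% and 7.25% over all genes. With GC offsets Maml1 (0.140) and Spen (0.0885) also ended. Of 16 bHLH and Id genes, 2 fell and 2 rose (12.5% each way, against 7.25% and 7.97% over all genes). The number called was between 2 (without Rbpj-/- replicate 2, control replicate 2 or control replicate 6) and 5 (without control replicate 4). Id4, which binds bHLH activators and keeps them off DNA, had 0.866, 0.460, 0.952 and 0.418 CPM against 1.43 to 4.34 CPM, with a median of 3.07, without overlap and fell (-2.17 ± 0.37, adjusted p = 0.00135). Lyl1, a bHLH factor of blood and vessel cells, also fell (-1.96 ± 0.50, adjusted p = 0.0138). Tcf3 (0.83 ± 0.25, adjusted p = 0.0259) and Tcf12 (0.49 ± 0.16, adjusted p = 0.0415), the E proteins that pair with proneural factors, rose, calls that ended for Tcf3 without Rbpj-/- replicate 1 or 2 or control replicate 2 or 6 (0.0502 to 0.118) and for Tcf12 without Rbpj-/- replicate 2, 3 or 4 or control replicate 2, 3, 5 or 6 (0.0656 to 0.146). Both also ended with only the 10 libraries (Tcf3 0.0852, Tcf12 0.108), and Tcf12 with either other filter on low counts or DESeq2's size factors (0.0575 to 0.0698). Without 3 libraries of mixed sex markers Maml1 (0.0628), Spen (0.0791), Tcf3 (0.0587) and Tcf12 (0.0523) did not pass.

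Markers of microglia and macrophages, the brain's immune cells, had a lower sum in every Rbpj-/- library than in any control. For 13 of the 22 listed every Rbpj-/- library lay below every control, and 1 had a fold change above 0. Of 22 microglia and macrophage markers 17 fell and none rose (77.3% fallen, against 7.25% over all genes). Their median log2 fold change was -2.41, against 0.07 over all genes. Their summed level was 215 to 370.2 CPM in Rbpj-/- and 477 to 1746 CPM in control. The sums did not overlap, and no marker of the list was at 0 in all libraries of a group. Siglech, a microglial lectin, had 1.40, 1.68, 2.14 and 1.56 CPM against 5.35 to 19.7 CPM, with a median of 15.9 (-3.11 ± 0.49, adjusted p = 0.000813). P2ry12, the microglial nucleotide receptor, had 2.48, 4.93, 9.62 and 4.57 CPM against 20.7 to 78.1 CPM, with a median of 38.8 (-3.03 ± 0.50, adjusted p = 0.00107). Neither gene overlapped. In pooled sorted cells, fewer cells of a type and less RNA per cell cannot be told apart.

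Of 18 endothelial markers 11 fell and none rose (61.1% fallen, against 7.25% over all genes, median -2.001). Their summed levels were 63.8 to 132 CPM against 152 to 425 CPM. Tek, the angiopoietin receptor, had 0.445, 0.855, 0.746 and 1.14 CPM against 2.22 to 10.2 CPM, with a median of 4.53 (-2.85 ± 0.55, adjusted p = 0.00320), and Ocln, a tight junction protein, had 0.468, 0.362, 0.489 and 0.603 CPM against 1.12 to 5.49 CPM, with a median of 2.56 (-2.64 ± 0.57, adjusted p = 0.00593). Neither gene overlapped. Only 5 of the list passed with the stricter filter, which leaves out genes of low level.

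The summed level of mature oligodendrocyte markers was 10828 to 28252 CPM in control and 4014 to 10542 CPM in Rbpj-/-. The highest Rbpj-/- sum, in replicate 3, lay just under the lowest control, in replicate 4. Of 20 markers 13 fell (65%, against 7.25% over all genes, median -2.10). Among them were the myelin genes Mog (-3.08 ± 0.73, adjusted p = 0.00938) and Opalin (-2.85 ± 0.74, adjusted p = 0.0143) and the enzyme Aspa (-2.96 ± 0.74, adjusted p = 0.0125). Mog had 46.7, 40.9, 124 and 28.2 CPM against 202 to 705 CPM, with a median of 520.3. Without Rbpj-/- replicate 3 the fold change was -3.71 for Mog and -3.87 for Aspa. The count was lower without Rbpj-/- replicates 1 (6), 2 (4) and 4 (4) and control replicate 2 (7). Oligodendrocyte precursor markers, which these PDGF-driven gliomas carry at high level, showed no such fall: their sum was 13902 to 22477 CPM against 15998 to 21213 CPM. Pdgfra, the PDGF receptor, had 2461, 5086, 5984 and 4020.2 CPM against 3037 to 5818 CPM, with a median of 4515 (-0.04 ± 0.29, adjusted p = 0.942), and the lineage factor Olig2 had 730.0, 659, 496 and 551 CPM against 478 to 548 CPM, with a median of 535 (0.21 ± 0.13, adjusted p = 0.269). Of 18 precursor markers only Sox6, a factor that delays differentiation, rose (0.61 ± 0.20, adjusted p = 0.0420), and this ended without Rbpj-/- replicate 2 or 4 or control replicate 2, 3, 5 or 6 (0.0576 to 0.148) with only the 10 libraries (0.0993), without 3 libraries of mixed sex markers (0.0605), and with either other filter or DESeq2's size factors (0.0543 to 0.0653).

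**Figure D3:**
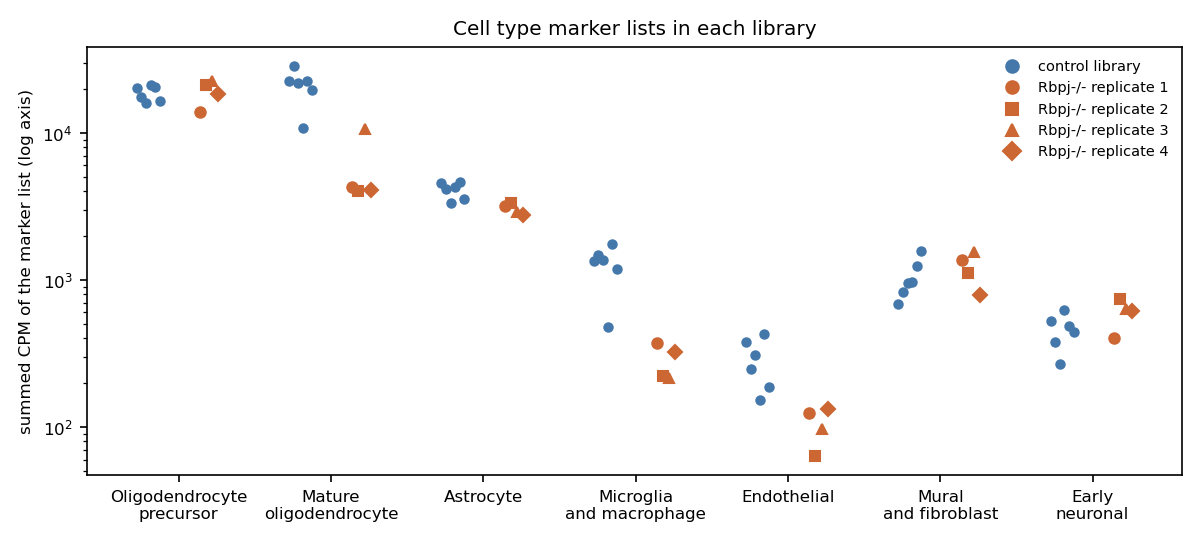
Summed CPM (log axis) of 7 marker lists in the 6 control libraries (circles) and the 4 Rbpj-/- libraries (1 marker shape per replicate). The microglia, endothelial, mature oligodendrocyte and astrocyte sums of the Rbpj-/- libraries all lie below the controls, and the precursor, mural and early neuronal sums overlap.

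Of 22 astrocyte markers 7 fell (31.8%, against 7.25% over all genes, median -0.91). Their sums did not overlap, at 2749 to 3333 CPM against 3349 to 4594 CPM, but the highest Rbpj-/- sum lay just under the lowest control. Mlc1, a membrane protein of astrocyte endfeet, had 3.46, 2.43, 2.06 and 1.39 CPM against 6.99 to 20.0 CPM, with a median of 12.5 (-2.46 ± 0.44, adjusted p = 0.00223). Slc4a4, a sodium bicarbonate cotransporter, had 3.07, 5.69, 7.31 and 5.34 CPM against 17.4 to 49.2 CPM, with a median of 25.3 (-2.42 ± 0.36, adjusted p = 0.000483). Neither overlapped.

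Some genes outside the cell type lists used here also fell sharply. Whether they are expressed in the cell types of those lists was not tested. Trnp1, a nuclear protein of neural progenitors, had 3.14, 4.08, 1.95 and 1.18 CPM in Rbpj-/- against 31.3 to 49.5 CPM in control, with a median of 37.4. Every Rbpj-/- library was far below every control (-3.91 ± 0.45, adjusted p = 1.83e-05; 0.00183 with the microglia covariate). AI506816 had 1.19, 0.986, 0.900 and 2.00 CPM against 44.3 to 74.5 CPM, with a median of 55.5 (-5.51 ± 0.57, adjusted p = 7.09e-06; 0.000831 with the microglia covariate). Both kept their call without each of the 10 libraries. Slc39a12, a zinc transporter, had 0.257, 0.526, 1.05 and 0.371 CPM against 3.93 to 12.9 CPM, with a median of 7.56 (-3.94 ± 0.64, adjusted p = 0.000944). S1pr1, a receptor for the lipid sphingosine 1-phosphate, had 9.78, 17.3, 20.8 and 15.5 CPM against 35.5 to 91.4 CPM, with a median of 52.9 (-1.83 ± 0.29, adjusted p = 0.000813). None of these 4 genes overlapped. Pdk4, a kinase that curbs pyruvate oxidation (-2.89 ± 0.47, adjusted p = 0.000944), the glutathione transferase Gsta4 (-2.96 ± 0.45, adjusted p = 0.000688) and the stress-induced Fam107a (-2.73 ± 0.44, adjusted p = 0.000923) fell by similar sizes. Smaller falls with a tight spread included St3gal6, a sialyltransferase (-1.28 ± 0.17, adjusted p = 0.000169).

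Several of the largest falls are genes of immune or vessel cells, whose marker sums fell as given above: the co-stimulatory protein Cd86 (-3.71 ± 0.80, adjusted p = 0.00593), the lysosomal protease Ctss (-3.32 ± 0.72, adjusted p = 0.00593), the interleukin receptor chain Il12rb1 (-4.97 ± 1.28, adjusted p = 0.0140), the endothelial antigen Ly6c1 (-3.77 ± 0.67, adjusted p = 0.00201) and the thyroid hormone transporter Slco1c1 (-3.54 ± 0.52, adjusted p = 0.000445). Ptgds, the prostaglandin D synthase of meninges and oligodendrocytes, fell as well (-3.25 ± 0.66, adjusted p = 0.00425). How far these falls follow the marker sums gene by gene was not tested beyond the covariate fits.

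Unc5d, a netrin receptor of migrating neurons, was the largest rise among genes without overlap and with a mean of at least 1 log2 CPM, at 10.8, 30.6, 34.5 and 23.0 CPM in Rbpj-/- against 1.39 to 5.96 CPM in control, with a median of 2.60 (3.04 ± 0.53, adjusted p = 0.00187). Plppr3, a membrane protein of growing neurites, had 13.3, 5.98, 2.93 and 12.5 CPM against 0.700 to 2.16 CPM, with a median of 1.47 (2.60 ± 0.36, adjusted p = 0.000287). Rerg, a small Ras-like GTPase, had 54.6, 51.6, 37.7 and 55.7 CPM against 2.63 to 26.0 CPM, with a median of 6.35 (2.34 ± 0.64, adjusted p = 0.0185). Their lowest Rbpj-/- library stood above the highest control in each case. Reln, the secreted guide of neuron layering, rose by a like size but overlapped: 58.7, 6.44, 3.52 and 45.6 CPM against 1.86 to 5.71 CPM, with a median of 2.99 (3.00 ± 0.72, adjusted p = 0.0100; 2.38 without Rbpj-/- replicate 1, 0.0460). Of 32 genes of the netrin, Slit and repulsive guidance list, 6 rose and 3 fell (median 0.16), and Unc5b, of the same receptor family as Unc5d, was among those that fell. It had 11.1, 14.0, 16.2 and 8.66 CPM against 26.0 to 53.6 CPM, with a median of 46.6 (-1.78 ± 0.53, adjusted p = 0.0278), without overlap, and this ended without Rbpj-/- replicate 1, 2 or 4 (0.0635 to 0.0824). The number called in the list was between 3 (without Rbpj-/- replicate 2) and 10 (without control replicate 4). In the main fit 18.75% of the list rose and 9.375% fell, against 7.97% and 7.25% over all genes.

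Other genes rose by less with a narrow spread. Dctd, which deaminates dCMP for thymidylate synthesis, had 49.6, 40.8, 33.6 and 32.7 CPM against 9.13 to 16.2 CPM, with a median of 12.0 (1.69 ± 0.24, adjusted p = 0.000381). Kpna2, a nuclear import receptor, had 65.3, 41.5, 50.3 and 49.2 CPM against 14.0 to 24.1 CPM, with a median of 18.7 (1.47 ± 0.24, adjusted p = 0.000923). Neither overlapped. L3hypdh, a hydroxyproline dehydratase (1.17 ± 0.19, adjusted p = 0.000981), Fbxo17, a ubiquitin ligase subunit (1.54 ± 0.25, adjusted p = 0.00107), Msh5, a meiotic MutS protein (1.55 ± 0.29, adjusted p = 0.00267), and Sinhcaf, a subunit of a histone deacetylase complex (1.51 ± 0.28, adjusted p = 0.00236), rose without overlap too. Cnot10, a subunit of the deadenylase that shortens mRNA tails, had 94.2, 102, 109.8 and 102 CPM against 57.9 to 72.3 CPM, with a median of 67.1 (0.60 ± 0.08, adjusted p = 0.000287). Enc1, a neuronal actin-binding protein, rose by a similar size (0.86 ± 0.13, adjusted p = 0.000771).

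**Figure D4:**
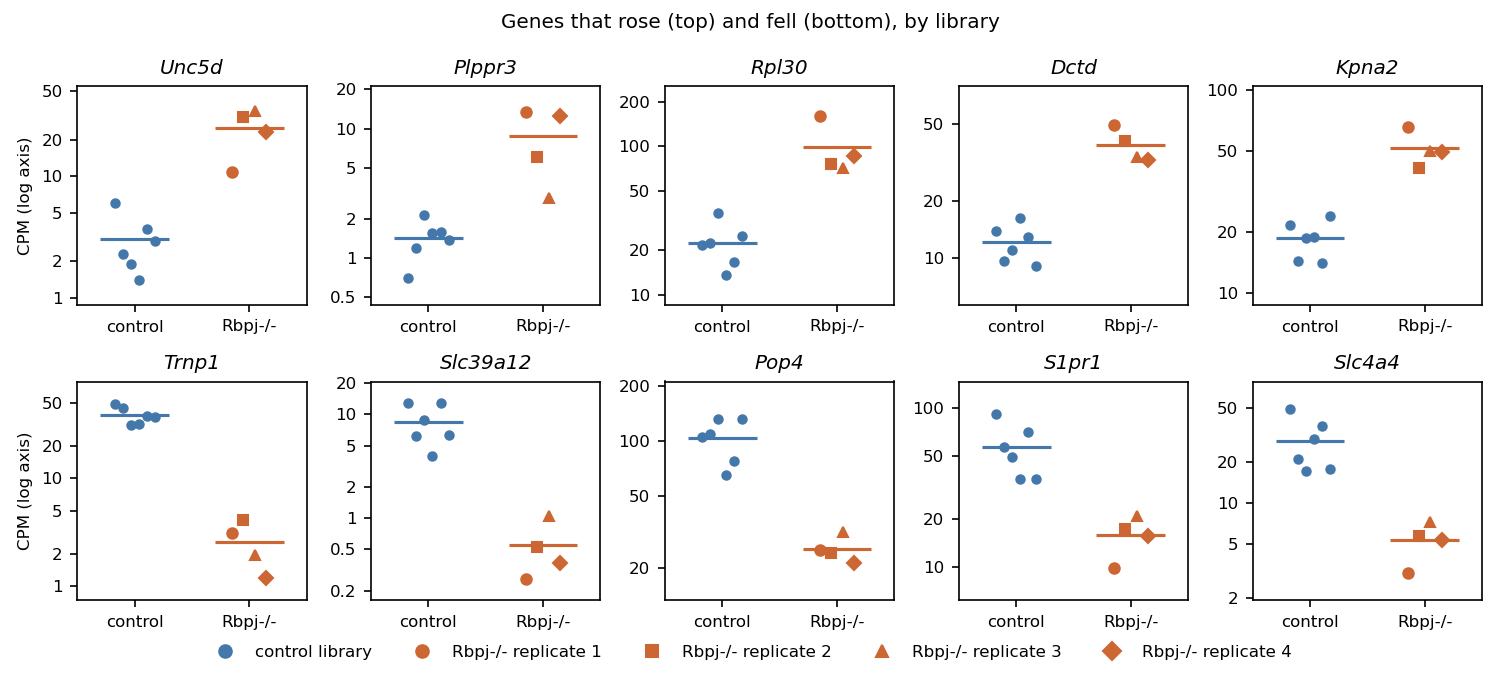
CPM on a log axis of 5 genes that rose (top) and 5 that fell (bottom) in the 6 control libraries (circles) and the 4 Rbpj-/- libraries (1 marker shape per replicate), with bars at the group means. No gene shown has an Rbpj-/- library inside the control range.

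Of 56 tested ribosome biogenesis genes, in a list drawn up after the values were seen, 24 rose, 1 fell and 31 did not pass (median 0.44, against 0.07 over all genes). With the list chosen that way, the count (42.9% risen, where 7.97% of all genes rose) is a description. Polr1b, a subunit of RNA polymerase I, rose by 0.63 ± 0.13 (adjusted p = 0.00436), the nucleolar protein Rrp1b by 0.74 ± 0.15 (0.00474) and the nucleolar chaperone Nolc1 by 0.66 ± 0.15 (0.00681). Without 1 library the number that rose was lower by over 1.5 times for Rbpj-/- replicates 2 (14) and 4 (14) and control replicate 2 (13), and it was 6 with only the 10 libraries in the fit. The 1 gene that fell, Pop4, and one that rose, Pop1, encode subunits of the same RNA-cutting complexes, RNase P and RNase MRP. Pop4 had 25.0, 24.2, 31.4 and 21.2 CPM against 64.8 to 132 CPM, with a median of 107 (-2.02 ± 0.24, adjusted p = 2.78e-05). Pop1 had 32.3, 25.4, 21.3 and 25.4 CPM against 8.58 to 14.7 CPM, with a median of 11.0 (1.22 ± 0.20, adjusted p = 0.00122). Neither overlapped, and both kept their call without each library.

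Of 37 aminoacyl-tRNA synthetases, which charge tRNAs, 8 rose and none fell (21.6% risen, where 7.97% of all genes rose, median 0.28). The rises were led by Vars2 and Vars, the mitochondrial and cytosolic enzymes for valine, and Ears2. Vars2 had 36.9, 33.7, 20.1 and 26.0 CPM against 10.7 to 15.7 CPM, with a median of 13.7 (1.13 ± 0.16, adjusted p = 0.000338), Vars rose by 1.14 ± 0.19 (0.00122) and Ears2 by 0.60 ± 0.15 (0.0126). This list was also chosen after the values were seen, and its count moved to 13 without Rbpj-/- replicate 3, to 5 without replicate 1, to 4 without replicate 4, to 4 without control replicate 2, to 5 without control replicate 3 or 6, and to 3 with only the 10 libraries. Eif4b, which helps ribosomes unwind mRNA leaders, had 709, 563, 474 and 654 CPM against 294 to 428 CPM, with a median of 332 (0.79 ± 0.12, adjusted p = 0.000445), 1 of 6 risen among 40 initiation factors. The number called among initiation factors was between 1 (without Rbpj-/- replicate 1) and 7 (without Rbpj-/- replicate 3). In the main fit 15% of them rose, where 7.97% of all genes rose. The initiation factor list too was chosen after the values were seen, so its share is a description. Of 76 cytoplasmic ribosomal proteins 3 passed, all risen (3.95%, against 7.97% over all genes), and the number was between 2 and 20 (without Rbpj-/- replicate 3). Of the 76, 75 had a fold change above 0 (median 0.41), as did 8689 of all 15617 genes (median 0.07). Rpl30 had 159.5, 76.2, 71.2 and 86.2 CPM against 13.6 to 35.5 CPM, with a median of 22.0 (2.13 ± 0.24, adjusted p = 1.83e-05; 0.0478 with the microglia covariate), but a ribosomal protein shares reads with near-identical copies, so the value of 1 such gene is uncertain.

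Of 53 mitosis genes 18 rose (34.0%, against 7.97% over all genes) and none fell. All 53 had a fold change above 0 (median 0.87), as did 8689 of all 15617 genes (median 0.07). Incenp, which places the Aurora B kinase, had 126, 88.4, 72.6 and 101 CPM against 27.2 to 59.4 CPM, with a median of 42.3 (1.16 ± 0.24, adjusted p = 0.00517). Ncapd2, a condensin subunit, had 337, 219.9, 177 and 258 CPM against 66.4 to 151 CPM, with a median of 102 (1.22 ± 0.26, adjusted p = 0.00555). Bub1b of the spindle checkpoint (1.12 ± 0.26, adjusted p = 0.00898), Foxm1, which switches on mitotic genes (1.11 ± 0.27, adjusted p = 0.0115), and the separase Espl1 (1.24 ± 0.30, adjusted p = 0.0111) rose by like sizes. All 5 lay above every control. Plk1, a mitotic kinase, rose too (1.49 ± 0.35, adjusted p = 0.00915; 0.0618 without Rbpj-/- replicate 1). The number that rose was 7 without Rbpj-/- replicate 4, 7, 9 and 8 without control replicates 2, 3 and 5, 29 without control replicate 4, 11 without 3 libraries of mixed sex markers, and 31 with GC offsets. Of 49 DNA replication genes 6 rose (12.2%, against 7.97% over all genes, median 0.54), among them the activator E2f2 (1.14 ± 0.27, adjusted p = 0.0104). With single libraries left out that number was between 1 (without Rbpj-/- replicate 1) and 10 (without Rbpj-/- replicate 3). Of 20 cyclin D, CDK inhibitor and E2F genes 4 rose (20%, against 7.97% over all genes), including Ccnd1 as above. Also among the 4 were the related Ccnd3 (1.22 ± 0.30, adjusted p = 0.0117) and the inhibitor locus Cdkn2a (2.20 ± 0.60, adjusted p = 0.0179). Ccnd3 and Cdkn2a lost their call without Rbpj-/- replicate 1 (0.0848 and 0.129), where none of the 20 passed. Cdkn2a also dropped to a log2 fold change of 1.33 in that fit and ended with only the 10 libraries (0.0526).

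**Figure D5:**
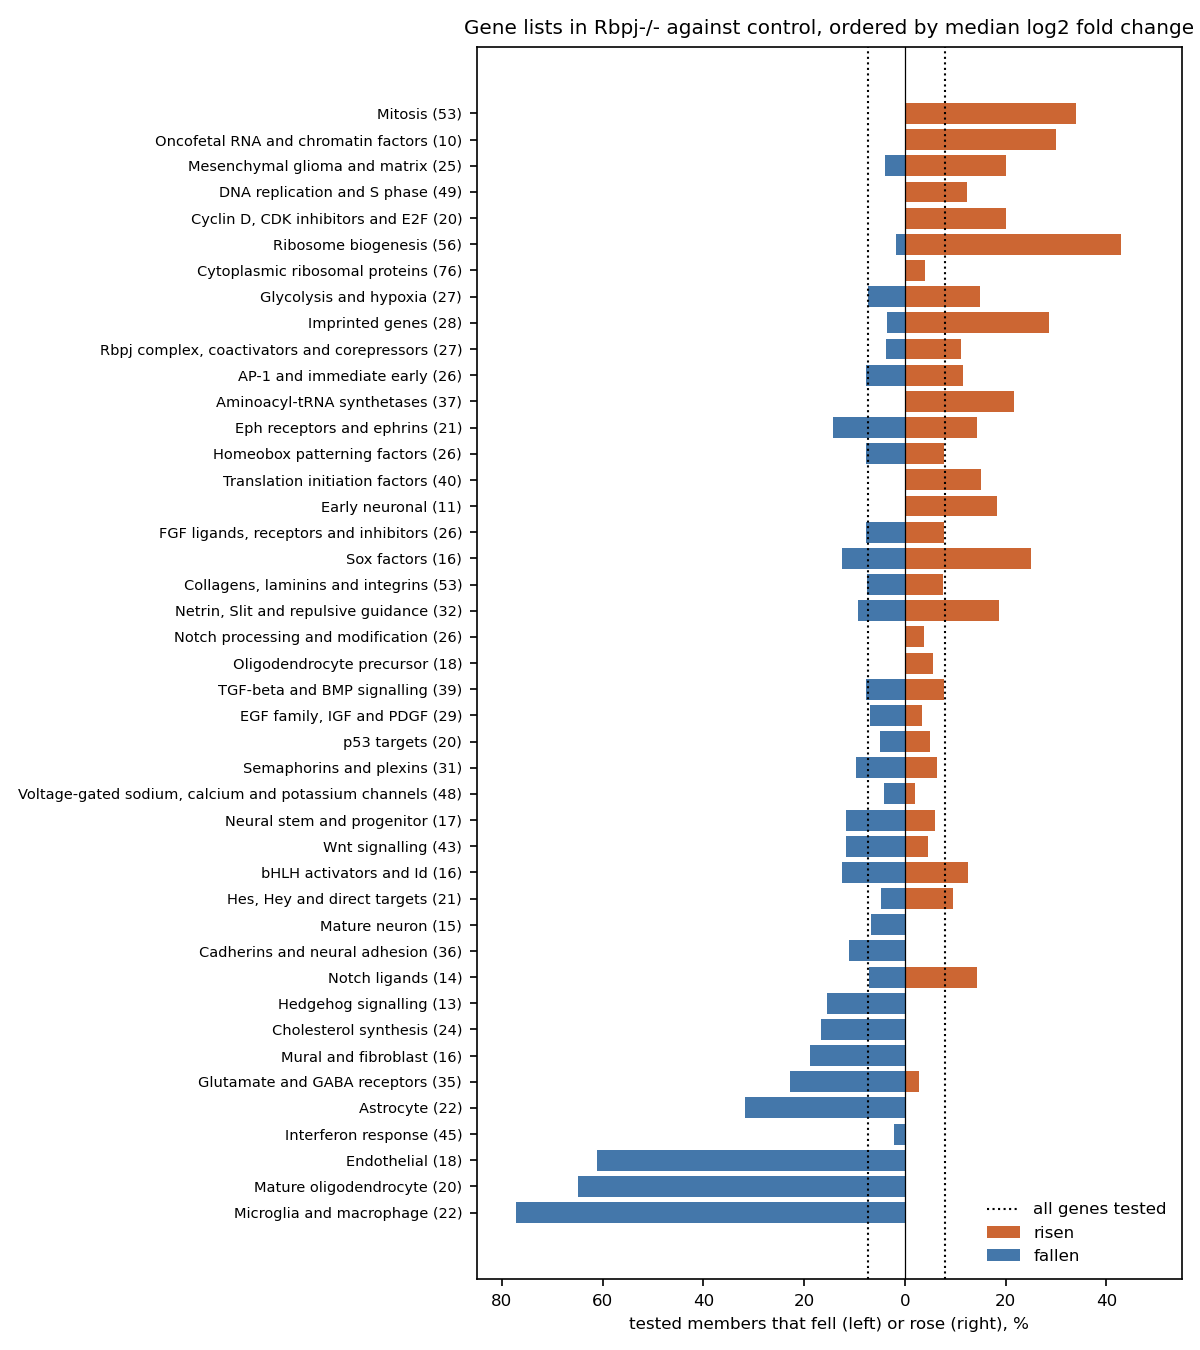
Share of each gene list that fell (blue, left) or rose (orange, right) in Rbpj-/- against control at an adjusted p under 0.05, with the number tested in brackets, ordered by median log2 fold change. Dotted lines mark the shares over all genes tested. Mitosis and ribosome biogenesis show the highest shares risen among lists of over 50 genes, and microglia, mature oligodendrocyte and endothelial markers the highest shares fallen. The ribosome biogenesis, aminoacyl-tRNA synthetase and initiation factor lists were chosen after the values were seen.

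Loss of Notch1 and Notch2 offers a comparison with loss of Rbpj, since by the labels the first spares Rbpj and the second spares these receptors. Notch3 and Notch4 are named in neither label, and how far Notch activation is removed in either genotype was not tested. The tumours labelled Notch1-/-Notch2-/- (5 libraries, Trp53 also knocked out and Rbpj wild type) were compared with Rbpj-/- directly, and 124 genes differed (0.794%), 68 higher and 56 lower in Rbpj-/-. Rbpj was lower in Rbpj-/- (-1.03 ± 0.21, adjusted p = 0.0197; 60.8 to 90.1 CPM in Notch1-/-Notch2-/-). A pair of Notch targets were higher in Rbpj-/-: Hey1, at 12.0 to 20.1 CPM in Notch1-/-Notch2-/- (0.95 ± 0.21, adjusted p = 0.0354), and Nrarp, at 3.74 to 7.55 CPM (1.65 ± 0.35, adjusted p = 0.0241). For both, each Rbpj-/- library given above exceeds the highest Notch1-/-Notch2-/- library. Hes1 differed the same way without passing (1.66 ± 0.43, adjusted p = 0.0730). S1pr1 was higher too (1.40 ± 0.28, adjusted p = 0.0197), and so were Rerg (3.28 ± 0.70, adjusted p = 0.0268) and L3hypdh (0.99 ± 0.20, adjusted p = 0.0197).

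Unc5d separated the 2 genotypes most widely among the genes named here, at 0.519 to 1.12 CPM in Notch1-/-Notch2-/- (4.92 ± 0.62, adjusted p = 0.000192). Against control, which both comparisons share, its log2 fold change was 3.04 in Rbpj-/- and -1.89 in Notch1-/-Notch2-/-. Pop4 was lower in Rbpj-/- (-1.40 ± 0.24, adjusted p = 0.00552; 64.7 to 69.1 CPM in Notch1-/-Notch2-/-). Unc5d and Pop4 kept these calls without each Rbpj-/- or Notch1-/-Notch2-/- library in turn, with adjusted p of 0.000386 to 0.00202 and 0.00872 to 0.0333. The other calls of this contrast named here ended without some single libraries, Rbpj-/- replicate 2 among them in each case, where the adjusted p was 0.0702 for Hey1 and 0.0687 for Nrarp. Over all libraries left out, the adjusted p was 0.0198 to 0.134 for Hey1, 0.0248 to 0.0916 for Nrarp, 0.00821 to 0.0687 for Rbpj, 0.0135 to 0.0687 for S1pr1, 0.0315 to 0.0823 for Rerg and 0.0180 to 0.0687 for L3hypdh. Without Rbpj-/- replicate 1, 2 or 4 the count of 124 fell to 42, 21 and 75, and without Notch1-/-Notch2-/- replicate 1, 2, 4 or 5 to 81, 34, 35 and 54.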

How the data were processed

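RNA of sorted cells was sequenced as stranded libraries on an Illumina sequencer, per the labels' protocols. The authors deposited 1 table of raw counts per gene (Entrez identifiers), and the submitters' processing notes name STAR and the mm10 build. How reads were counted, and whether by strand, is not given in the sources used here. Columns were matched to samples through each sample's description. Symbols came from RefSeq for 24374 of 24454 identifiers.

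Counts of all 26 libraries were fitted with edgeR 4.0.16 (limma 3.58.1, R 4.3.3): filterByExpr, TMM scaling, a term per genotype, and the quasi-likelihood test with Benjamini-Hochberg adjustment over all 15617 genes at 0.05. Fold changes are log2 and given ± standard error. Adjusted p-values in the text come from this test unless another setting is named. CPM are TMM-scaled. DESeq2 1.42.0, limma voom, other scalings and filters, covariates, GC offsets and leaving out each library were alternatives. On counts simulated for Rbpj-/- against control (15486 genes), the fit recovered 60% and 54% of 2-fold rises and falls and 96% and 92% of 4-fold ones. It made 12 false calls. The simulation changed 50 genes per size and direction and held no GC slopes, chromosome 5 shift or marker differences as in these libraries. Its rates therefore do not describe the fit under those differences.

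Named genes were the tested Notch pathway genes, the 20 largest non-overlapping rises and falls whose mean log2 CPM reached 1, the 15 rises and 15 falls of smallest adjusted p, and up to 5 called members per list. Ranking passed over predicted genes, pseudogenes, Xist and genes of the Y chromosome. The text gives part of these. Ears2, Foxm1, Nolc1, Ocln, Pdgfra, Polr1b, Rrp1b, Unc5b and Vars lie outside that rule, and they and the 3 lists on protein synthesis (aminoacyl-tRNA synthetases, ribosome biogenesis, initiation factors) were chosen after their values were seen. The members and lists were chosen with earlier results of these data known. Replicate numbers did not pair the samples. Marker lists of 12 cell types were summed as CPM.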

Additional observations from a re-analysis of the deposited data

Results flagged for a closer look

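In 13 of 182 groups of libraries looked at, 1 library stood apart from the others of its group by Dixon's test on CPM. Chance alone sets about 1 group in 20 apart only where values follow a normal curve. Whether these CPM do was not tested, so the count of 13 cannot be read against that rate. In all 13 the library that stood apart was the highest of its group. Rbpj-/- replicate 1 stood apart in 4 genes. It had 43.9 CPM of Igf2bp2, an RNA-binding protein of fetal tissue, where the other Rbpj-/- libraries had 0.309 to 2.65 CPM. It had 36.8 CPM of Hmga1, a chromatin protein of dividing fetal cells (1.62 to 7.13 CPM in the others), 453 CPM of the galectin Lgals1 (16.7 to 62.3 CPM) and 159.5 CPM of Rpl30 (71.2 to 86.2 CPM). Rbpj-/- replicate 3 had 18.9 CPM of the oligodendrocyte enzyme Aspa against 3.53 to 5.20 CPM, and replicate 4 had 1.04 CPM of Cd86 against 0.468 to 0.526 CPM.

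Control replicate 4 stood apart in 4 genes: 20.0 CPM of Cdkn2a against 3.40 to 8.70 CPM, 6.01 CPM of Dlk1 against 0.569 to 2.17 CPM, 1.23 CPM of Igf2bp2 against 0.226 to 0.442 CPM, and 11.8 CPM of the imprinted Peg12 against 5.42 to 7.30 CPM. Control replicate 1 had 21.3 CPM of Hes1 against 11.9 to 15.0 CPM, replicate 2 had 14.0 CPM of Gsta4 against 7.06 to 9.43 CPM, and replicate 3 had 15.2 CPM of Trp53 against 8.98 to 10.9 CPM.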

How the results depend on the processing

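The 2378 calls became 1533 (717 risen, 816 fallen) with a stricter filter, 3747 (1853 risen, 1894 fallen) with limma voom, 3147 (1436 risen, 1711 fallen) with DESeq2, 1222 (346 risen, 876 fallen) with only the 10 libraries, 1492 (672 risen, 820 fallen) without 3 libraries of mixed sex markers, and 68 (24 risen, 44 fallen) with only libraries that had Ddx3y and no Xist (3 against 4). With GC offsets they became 2658 (1169 risen, 1489 fallen). With a marker score as covariate they became 7 (2 risen, 5 fallen) for microglia, 13 (4 risen, 9 fallen) for endothelium and 26 (13 risen, 13 fallen) for mature oligodendrocytes. The replicate numbers did not pair the samples (correlations of deviations from -0.34 to 0.04), and with a replicate block the calls were 1304 (557 risen, 747 fallen), and 50 against Notch1-/-Notch2-/-, where DESeq2 gave 317. Without single libraries the calls ranged from 1132 to 3292, the rises from 603 to 1920, the falls from 527 to 1479, and those against Notch1-/-Notch2-/- from 21 to 156.

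The Rbpj fold change no longer passed with only the 10 libraries (-0.73), with only Ddx3y libraries (-0.71), or with the microglia (-0.43), endothelial (-0.70) or oligodendrocyte (-0.77) score, and ran from -0.89 to -0.49 without single libraries. Signs turned for Ctss (0.0504) and Lyl1 (0.049) with the microglia score, Hey1 (0.25) and Unc5b (0.15) with the oligodendrocyte score, Olig2 (-0.0097) with GC offsets, and Pdgfra with the endothelial score (0.0228) and without single libraries (-0.23 to 0.16). The cause was not tested. Of 83 called single genes, 65 kept their call without each single library, 4, 6 and 11 kept it with the microglia, endothelial and oligodendrocyte score, and 25 with only Ddx3y libraries. The replicate block ended Ccnd1, Cd44, Cdkn2a, Dlk1, H19, Igf2bp2, Lgals1, Maml1, Notch1, Spen, Tcf12 and Tcf3. Genes under about 1 CPM, such as Id4 and Ocln in Rbpj-/-, rest on few counts.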

Other observations

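Of 35 tested receptor genes for glutamate and GABA, 8 fell, where 7.25% of all genes fell, and 1 rose (median -0.48, against 0.07 over all genes), and the number called was between 5 (without Rbpj-/- replicate 1 or Rbpj-/- replicate 4) and 11 (without Rbpj-/- replicate 3) when single libraries were left out. Grm3, a metabotropic glutamate receptor, had 0.796, 2.50, 3.76 and 1.16 CPM against 7.86 to 26.3 CPM, with a median of 16.0 (-3.03 ± 0.61, adjusted p = 0.00396). Grm7, of the same family, had 0.0234, 0.526, 0.643 and 0.418 CPM against 1.92 to 5.54 CPM, with a median of 4.54 (-3.36 ± 0.76, adjusted p = 0.00776). Neither overlapped. The AMPA receptor subunit Gria1 (-1.92 ± 0.49, adjusted p = 0.0132) and the GABA receptor subunit Gabrb1 (-2.09 ± 0.52, adjusted p = 0.0121) fell without overlap as well. Grik3, a kainate receptor subunit, rose with 1 library inside the control range (0.86 ± 0.21, adjusted p = 0.0101; 0.0646 with only the 10 libraries). Of 24 cholesterol synthesis genes 4 fell (16.7%, against 7.25% over all genes) and none rose. Msmo1, which removes methyl groups from sterol precursors, was among those that fell (-0.89 ± 0.22, adjusted p = 0.0114). The number of cholesterol genes called was between 1 (without Rbpj-/- replicate 4) and 9 (without Rbpj-/- replicate 3). Mature oligodendrocyte markers were lower in the same libraries, and their part in these falls was not tested beyond the covariate fits.

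Several imprinted and fetal genes rose, with their highest level in Rbpj-/- replicate 1. Of 28 imprinted genes 8 rose and 1 fell (28.6% and 3.57%, against 7.97% and 7.25% over all genes, median 0.34). The number called was between 2 (without Rbpj-/- replicate 1) and 9 (without Rbpj-/- replicate 3 or control replicate 4). H19, an imprinted noncoding RNA, had 106, 39.7, 3.16 and 35.9 CPM against 0.843 to 9.11 CPM, with a median of 3.39 (3.32 ± 0.92, adjusted p = 0.0202). Peg12 had 28.9, 15.9, 13.4 and 18.9 CPM against 5.42 to 11.8 CPM, with a median of 6.79 (1.39 ± 0.34, adjusted p = 0.0104). Peg12 did not overlap and H19 did. Igf2bp2 had 43.9, 1.09, 0.309 and 2.65 CPM against 0.226 to 1.23 CPM, with a median of 0.371 (4.59 ± 1.16, adjusted p = 0.0132), and Hmga1 had 36.8, 6.25, 1.62 and 7.13 CPM against 0.948 to 3.02 CPM, with a median of 1.61 (2.90 ± 0.60, adjusted p = 0.00484). The hyaluronan receptor Cd44 (3.32 ± 0.91, adjusted p = 0.0186) and Lgals1 (3.30 ± 0.87, adjusted p = 0.0162), from a list of mesenchymal glioma genes of which 5 of 25 rose (20%, against 7.97% over all genes), also overlapped. Of that list 0 rose without Rbpj-/- replicate 1, 2 without replicate 4 or any single control but replicate 4, 0 with limma voom and 0 with the replicate block. Voom also ended Cd44 (0.106), Lgals1 (0.143) and Igf2bp2 (0.285). Without Rbpj-/- replicate 1 the log2 fold change was 2.50 (adjusted p = 0.0833) for H19, 1.45 (adjusted p = 0.328) for Igf2bp2, 1.52 (adjusted p = 0.0602) for Hmga1, 2.48 (adjusted p = 0.0805) for Cd44 and 1.24 (adjusted p = 0.277) for Lgals1, so these 5 calls ended.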
